A study of Mus musculus with 18 samples.

Results

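Ccl2, Ccl7, Ccl9 and Ccl17, 4 genes of the CC chemokine family, were followed across 18 arrays of C3H10T1/2 cells, an established mouse embryonic fibroblast line that can turn into fat cells. A probe set was taken when the array annotation gave 1 of these symbols, which found 4 probe sets, 1 per gene, among 12422 probe sets that are not controls and that carry 8251 gene symbols. They were 102736_at for Ccl2, 94761_at for Ccl7, 104388_at for Ccl9 and 97783_at for Ccl17. The genes had been picked with their intensities on these same arrays in view, so their levels and differences are given as a description, with standard errors. Calls of the fit and counts of its p-values under 0.05 are given later for them and are not read as evidence. All 4 were among the 7134 probe sets that passed the filter on low values. Ccl17 did so only through its level in the groups given the adipogenic mix without TCDD.

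The study crossed 3 treatments in all 8 combinations. IDMB, the adipogenic mix, held 1 µM BRL49653 (rosiglitazone, an agonist of PPARG), 1 µM dexamethasone (a glucocorticoid), 0.5 µM IBMX (a phosphodiesterase inhibitor) and 10 µg/mL insulin, and was given for 24 h. TCDD, a dioxin that activates AhR (the aryl hydrocarbon receptor), was present for 72 h at 10 nM, and EGF (epidermal growth factor) for 24 h at 10 nM. The groups with 2 arrays each were IDMB+EGF+TCDD, IDMB+TCDD, IDMB+EGF, EGF+TCDD, TCDD and EGF, while IDMB alone and UT, read here as the cells given none of the 3 treatments, had 3 arrays each. In every group the cells were collected 72 h after serum was last added and 24 h after they became confluent, and each array carried mRNA pooled from 6 cultures. Such arrays measure bulk RNA, in which fewer cells of a type and less RNA per cell cannot be told apart.

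CC chemokines are small secreted proteins with 2 adjacent cysteines near the start of the mature chain, and they draw leukocytes along a gradient by way of G protein-coupled receptors on those cells. Ccl2 and Ccl7, also known as MCP-1 and MCP-3, recruit monocytes through the receptor CCR2. Ccl9, known from mice as MIP-1 gamma, acts on CCR1, and Ccl17, also known as TARC, draws CCR4-bearing T cells. In fibroblasts and preadipocytes Ccl2 and Ccl7 are known as targets of NF-kB and AP-1 and are restrained by glucocorticoids. Ccl17 is best known as a target of STAT6 in dendritic cells and macrophages.

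In the RefSeq order of protein-coding genes Ccl2 and Ccl7 are neighbours on mouse chromosome 11, followed by Ccl11, Ccl12 and Ccl8. Ccl9 lies in another cluster of that chromosome, between Ccl5 and Ccl6, and Ccl17 lies on chromosome 8 beside Cx3cl1 and, next to that, Ccl22. The promoter windows of Ccl9 and Ccl17 are shown so that their letters can be set beside the factors that the treatments act on. Both are the 250 bases before the annotated start of the gene in RefSeq on build GRCm38.p6, written 5′ to 3′ on the strand of the gene, at chr11:83578637-83578886 (minus strand) for Ccl9 and at chr8:94810203-94810452 (plus strand) for Ccl17. Windows for 2 of the 4 genes were used. Capitals mark matches to the motifs named after the sequences.
Ccl9: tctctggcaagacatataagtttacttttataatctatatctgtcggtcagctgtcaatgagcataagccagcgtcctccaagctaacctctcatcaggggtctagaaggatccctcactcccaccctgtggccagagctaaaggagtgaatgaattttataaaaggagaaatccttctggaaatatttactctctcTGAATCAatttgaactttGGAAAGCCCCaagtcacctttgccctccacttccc
Ccl17: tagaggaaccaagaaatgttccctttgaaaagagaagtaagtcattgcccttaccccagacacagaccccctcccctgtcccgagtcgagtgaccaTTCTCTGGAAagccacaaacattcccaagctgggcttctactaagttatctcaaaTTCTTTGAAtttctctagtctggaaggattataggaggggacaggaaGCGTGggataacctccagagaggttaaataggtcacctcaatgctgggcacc
The Ccl9 window held TGAATCA from 53 to 47 bases before the start. These letters match TGANTCA, the AP-1 pattern searched, which leaves the middle base free. The window also held a match to the NF-kB consensus from 35 to 26 bases before the start, on the opposite strand. The Ccl17 window held GCGTG, the core bound by AhR with ARNT, from 52 to 48 bases before the start. It also held TTCNNNGAA, a STAT motif, from 99 to 91 bases before the start, and the STAT6 spacing, which has 1 more base between TTC and GAA, from 154 to 145 bases before it. Neither window held AGAACA (part of the glucocorticoid response element) or TTGCGCAA (a C/EBP site). Both strands were searched, no matches overlapped, and the motifs were chosen with these sequences in view. Of 32851 promoter windows of this length, 28.2% held GCGTG, 6.75% TGANTCA, 7.25% the NF-kB consensus, 7.02% TTCNNNGAA, 5.85% the STAT6 spacing, 16.1% AGAACA and 0.164% TTGCGCAA. A match is a run of letters in the window and was not tested as a binding site.

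Intensities are in arbitrary units on a linear scale, with values under a floor of 143.5 set to it before log2 was taken. Group means are geometric means, and a difference is the first group's mean log2 intensity minus that of the second, with its standard error (SE) from a limma fit over all 18 arrays. Log2 intensities of arrays in 1 group correlated at 0.922 to 0.960. The Gapdh ratio (3′ over 5′ control probe set, a sign of RNA integrity) was 0.919 and 0.854 with TCDD alone and 1.05 and 1.09 with IDMB+TCDD. It was 2.71 and 2.34 with EGF+TCDD, 2.13 and 2.86 with IDMB+EGF+TCDD, and between 1.19 and 2.47 in the remaining groups. The 12 comparisons share arrays with one another, so their values are not independent. Levels of different genes come from different probe sets and are not set against each other.

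**Figure D1:**
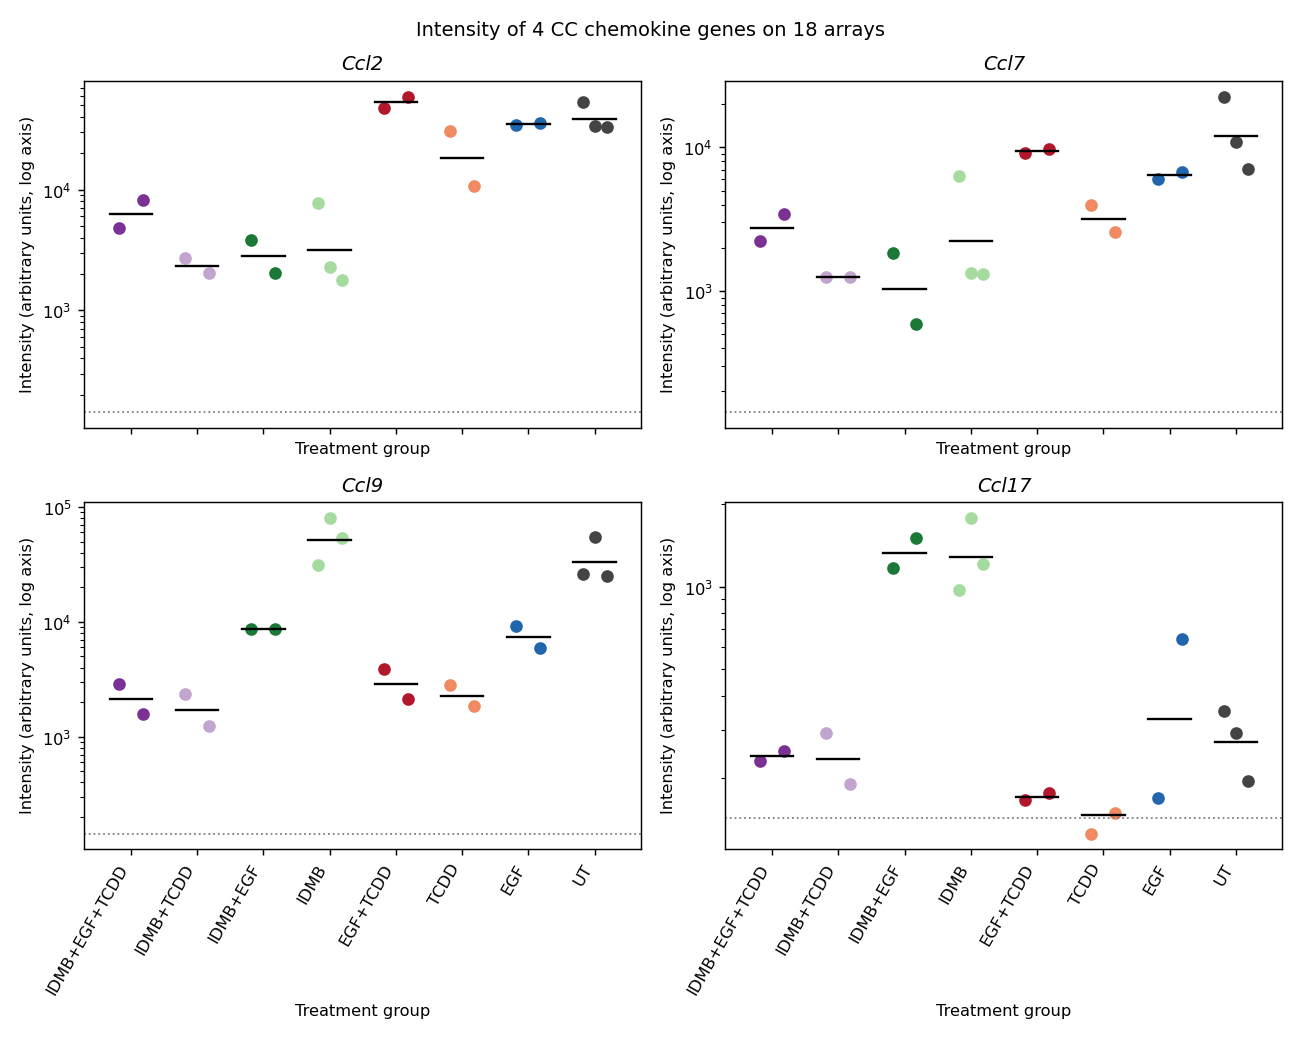
Intensity (arbitrary units, log axis) of Ccl2, Ccl7, Ccl9 and Ccl17 on each of the 18 arrays, by treatment group, with a bar at the geometric mean and a dotted line at the floor of 143.5. Ccl2 and Ccl7 are lower in the 4 groups with IDMB than in UT, Ccl9 is lower in the 4 groups with TCDD, and Ccl17 is highest with IDMB and with IDMB+EGF.

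Ccl9, the mouse chemokine that acts on CCR1, was low on every array given TCDD. It read 2799.9 and 1836.3 with TCDD, against 25983.9, 54818.1 and 25210.3 in UT. All TCDD arrays lay below all UT arrays, and the difference was −3.86 (SE 0.430), a 14.5-fold lower mean. With IDMB+TCDD Ccl9 read 2338.8 and 1238.0, against 31143.8, 79990.4 and 53971.1 with IDMB. These groups lay furthest apart of the 12 comparisons, with no overlap and a 30.1-fold lower mean with IDMB+TCDD (log2 −4.91, SE 0.430). Ccl9 read 3850.1 and 2148.3 with EGF+TCDD, against 9222.0 and 5928.3 with EGF. The arrays did not overlap here either, but the difference was smaller, at −1.36 (SE 0.471, 2.57-fold lower). With IDMB+EGF+TCDD it read 2880.9 and 1570.5, against 8624.5 and 8610.5 with IDMB+EGF, a difference of −2.02 (SE 0.471, 4.05-fold lower). The 4 groups with TCDD held the 4 lowest means, between 1702 with IDMB+TCDD and 2876 with EGF+TCDD, and each of them overlapped the next in that order.

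EGF without TCDD also went with less Ccl9. The EGF arrays given above lay below the UT arrays (log2 −2.16, SE 0.430, 4.46-fold lower), and the IDMB+EGF arrays below the IDMB arrays by −2.57 (SE 0.430, 5.94-fold lower). In cells that had TCDD, the arrays with and without EGF overlapped. EGF+TCDD arrays overlapped TCDD arrays (log2 0.34, SE 0.471), and IDMB+EGF+TCDD arrays overlapped IDMB+TCDD arrays (log2 0.32, SE 0.471). These differences were 1.70 and 1.41 with the Gapdh ratio as a covariate. For the mix, IDMB overlapped UT (log2 0.63, SE 0.384), IDMB+EGF overlapped EGF (0.22, SE 0.471), IDMB+TCDD overlapped TCDD (−0.41, SE 0.471) and IDMB+EGF+TCDD overlapped EGF+TCDD (−0.44, SE 0.471). In order of mean, Ccl9 ran from IDMB through UT, IDMB+EGF, EGF, EGF+TCDD, TCDD and IDMB+EGF+TCDD to IDMB+TCDD. Neighbours in this order were separated without overlap only between UT and IDMB+EGF and between EGF and EGF+TCDD.

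Ccl17, the ligand of CCR4, was present above its level in UT mainly with IDMB and with IDMB+EGF. It read 971.0, 1777.2 and 1211.3 with IDMB, against 350.0, 291.6 and 195.2 in UT. All IDMB arrays lay above all UT arrays, by 2.24 on the log2 scale (SE 0.499, 4.72-fold). With IDMB+EGF Ccl17 read 1164.3 and 1499.7, against 169.0 and 642.5 with EGF. The arrays did not overlap (log2 2.00, SE 0.611), but the EGF arrays were far apart, and the difference was 1.04 without EGF replicate 1 and 2.97 without EGF replicate 2.

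TCDD in cells given the mix went with Ccl17 near its level in UT. With IDMB+TCDD it read 291.0 and 190.1, both below every IDMB array, a difference of −2.44 (SE 0.558, 5.44-fold lower). With IDMB+EGF+TCDD it read 230.7 and 251.7, both below the IDMB+EGF arrays, a difference of −2.46 (SE 0.611, 5.48-fold lower). Without the mix Ccl17 was close to the floor in both groups given TCDD. It read 125.4, which is under the floor, and 148.9 with TCDD, below all UT arrays (log2 −0.89, SE 0.558). It read 165.8 and 175.8 with EGF+TCDD, and the spread of the EGF arrays overlapped these (log2 −0.95, SE 0.611). That last value was −1.91 without EGF replicate 1 and 0.01 without EGF replicate 2. Differences from values so near the floor are compressed.

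The mix went with a smaller gain of Ccl17 once TCDD was present. IDMB+TCDD lay above TCDD by 0.69 (SE 0.611) and IDMB+EGF+TCDD above EGF+TCDD by 0.50 (SE 0.611), with no overlap in either. For EGF, Ccl17 values with EGF+TCDD lay above TCDD without overlap by 0.22 (SE 0.611), while the arrays overlapped for IDMB+EGF+TCDD against IDMB+TCDD (0.03, SE 0.611), for IDMB+EGF against IDMB (0.05, SE 0.558) and for EGF against UT (0.28, SE 0.558). The value for EGF against UT was 1.24 without EGF replicate 1 and −0.68 without EGF replicate 2. A covariate for the Gapdh ratio gave −1.55 for EGF+TCDD against TCDD and −1.38 for IDMB+EGF+TCDD against IDMB+TCDD. In order of mean Ccl17 ran from IDMB+EGF through IDMB, EGF, UT, IDMB+EGF+TCDD, IDMB+TCDD and EGF+TCDD to TCDD. Neighbours were separated without overlap between IDMB and EGF, between IDMB+TCDD and EGF+TCDD, and between EGF+TCDD and TCDD.

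Ccl2, the main monocyte attractant of the family, was low on every array given the mix. It read 7778.5, 2269.4 and 1782.7 with IDMB, against 52740.9, 33708.8 and 32854.2 in UT. No arrays overlapped, and the mean was 12.3-fold lower with IDMB (log2 −3.62, SE 0.464). IDMB replicate 1 stood above the other IDMB arrays, and without it the difference was −4.27. The difference was −3.21 without IDMB replicate 3. With IDMB+EGF Ccl2 read 3862.2 and 2044.9, against 34352.3 and 35649.9 with EGF, which is 12.5-fold lower (log2 −3.64, SE 0.569). With IDMB+TCDD it read 2710.3 and 2034.9, against 30808.2 and 10658.9 with TCDD. This was 7.72-fold lower (log2 −2.95, SE 0.569), and between −3.71 and −2.18 without TCDD replicate 2 and without TCDD replicate 1. With IDMB+EGF+TCDD it read 4768.2 and 8287.9, against 47905.0 and 58766.7 with EGF+TCDD, 8.44-fold lower (log2 −3.08, SE 0.569). The lowest Ccl2 array without the mix, at 10658.9, was above the highest array with it, at 8287.9. With the actin ratio (3′ over 5′ control probe set) as a covariate, the differences for the mix were larger, at −4.70 for IDMB against UT and −4.83 for IDMB+EGF+TCDD against EGF+TCDD.

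TCDD alone went with less Ccl2 and TCDD beside EGF with more. TCDD arrays lay below the UT arrays (log2 −1.10, SE 0.519), but the TCDD arrays differed widely, and the difference was −1.86 without TCDD replicate 1 and −0.33 without TCDD replicate 2. EGF+TCDD arrays lay above the EGF arrays by 0.60 (SE 0.569), and IDMB+EGF+TCDD arrays above the IDMB+EGF arrays by 1.16 (SE 0.569). IDMB+TCDD arrays overlapped the IDMB arrays (log2 −0.43, SE 0.519), and that value was 0.22 without IDMB replicate 1. EGF went with more Ccl2 where TCDD was present. EGF+TCDD lay above TCDD by 1.55 (SE 0.569, 2.93-fold), with 0.78 without TCDD replicate 2 and 2.32 without TCDD replicate 1. IDMB+EGF+TCDD lay above IDMB+TCDD by 1.42 (SE 0.569, 2.68-fold). EGF arrays overlapped UT arrays (−0.15, SE 0.519) and IDMB+EGF arrays overlapped IDMB arrays (−0.17, SE 0.519), a value that was 0.48 without IDMB replicate 1. The Gapdh ratio was higher in the groups with both EGF and TCDD than in those with TCDD and no EGF, without overlap. The ratio and EGF can therefore not be told apart in these comparisons. With that ratio as a covariate, Ccl2 differed by −0.73 for EGF+TCDD against TCDD and by −0.40 for IDMB+EGF+TCDD against IDMB+TCDD, both of opposite sign to the values above. The same covariate gave −0.09 for TCDD against UT and −0.04 for EGF+TCDD against EGF.

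In order of mean Ccl2 ran from EGF+TCDD (53059) through UT, EGF, TCDD, IDMB+EGF+TCDD, IDMB and IDMB+EGF to IDMB+TCDD (2348). The arrays of neighbours overlapped except between EGF and TCDD and between TCDD and IDMB+EGF+TCDD.

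Ccl7, the neighbour of Ccl2 on chromosome 11 and a ligand of several monocyte receptors, was also lower with the mix. It read 6314.0, 1334.5 and 1311.8 with IDMB, against 22476.6, 10816.5 and 7120.7 in UT. The arrays did not overlap (log2 −2.43, SE 0.536, 5.39-fold lower). The difference was −3.18 without IDMB replicate 1 and −1.98 without UT replicate 1, the highest UT array. With IDMB+EGF Ccl7 read 1841.7 and 587.2, against 6046.0 and 6723.9 with EGF, 6.13-fold lower (log2 −2.62, SE 0.657). Leaving out either IDMB+EGF array gave −3.44 and −1.79. With IDMB+TCDD it read 1246.1 and 1249.8, against 3955.7 and 2569.9 with TCDD (log2 −1.35, SE 0.657, 2.55-fold lower). With IDMB+EGF+TCDD it read 2215.8 and 3440.1, against 9176.6 and 9685.8 with EGF+TCDD (log2 −1.77, SE 0.657, 3.41-fold lower). All 4 comparisons were free of overlap.

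The TCDD values of Ccl7 followed those of Ccl2 in sign. TCDD arrays lay below all UT arrays (log2 −1.91, SE 0.600, 3.77-fold lower). The difference was −1.46 without UT replicate 1 and −2.29 without UT replicate 3. IDMB+TCDD arrays lay below all IDMB arrays (−0.84, SE 0.600), but by little against 2 of them, and the difference was −0.08 without IDMB replicate 1. EGF+TCDD lay above EGF (0.56, SE 0.657), and IDMB+EGF+TCDD lay above IDMB+EGF by 1.41 (SE 0.657), with 0.58 without IDMB+EGF replicate 2 and 2.23 without IDMB+EGF replicate 1. EGF arrays lay below all UT arrays (−0.91, SE 0.600) and IDMB+EGF arrays overlapped IDMB arrays (−1.10, SE 0.600). This last value was −1.92 without IDMB+EGF replicate 1, −0.27 without IDMB+EGF replicate 2 and −0.35 without IDMB replicate 1. Where TCDD was present the arrays with EGF were higher. EGF+TCDD lay above TCDD by 1.56 (SE 0.657, 2.96-fold) and IDMB+EGF+TCDD above IDMB+TCDD by 1.15 (SE 0.657, 2.21-fold). With the Gapdh ratio as a covariate these 2 differences were −1.20 and −1.06, and TCDD against UT was −0.70. In order of mean Ccl7 ran from UT through EGF+TCDD, EGF, TCDD, IDMB+EGF+TCDD, IDMB and IDMB+TCDD to IDMB+EGF, a ratio of 11.5 from first to last. Neighbours were separated without overlap from EGF+TCDD to EGF, from EGF to TCDD and from IDMB to IDMB+TCDD.

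The control-probe ratios moved with several groups, and there ratio and treatment cannot be told apart. Values with a ratio as a covariate are therefore not corrected effects. Besides those given above, many differences shifted by over 1.5-fold or turned sign when a ratio was a covariate. With the Gapdh ratio Ccl9 differed by −4.46 for TCDD against UT. Ccl17 differed by −0.11 for TCDD against UT and by −0.21 for EGF against UT. Ccl7 differed by −0.21 for EGF+TCDD against EGF, by −0.14 for IDMB+TCDD against IDMB and by −1.68 for EGF against UT. Ccl2 differed by 0.15 for IDMB+TCDD against IDMB and by −0.79 for EGF against UT. With IDMB+EGF+TCDD against IDMB+EGF this ratio gave 0.42 for Ccl2 and 0.51 for Ccl7, against 1.16 and 1.41 without it. With the actin ratio IDMB+EGF+TCDD against IDMB+EGF gave 0.25 for Ccl2 and 0.50 for Ccl7. IDMB+EGF+TCDD against IDMB+TCDD then gave 0.09 for Ccl2 and −0.19 for Ccl7, and EGF+TCDD against TCDD 0.62 and 0.63. With that ratio Ccl9 turned to 0.27 for IDMB+TCDD against TCDD and to 0.45 for IDMB+EGF+TCDD against EGF+TCDD, and the IDMB comparisons of Ccl7 gave −3.52 against UT and −3.53 for IDMB+EGF+TCDD against EGF+TCDD. The lower Ccl9 under TCDD kept its sign in the 4 TCDD comparisons with either ratio.

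**Figure D2:**
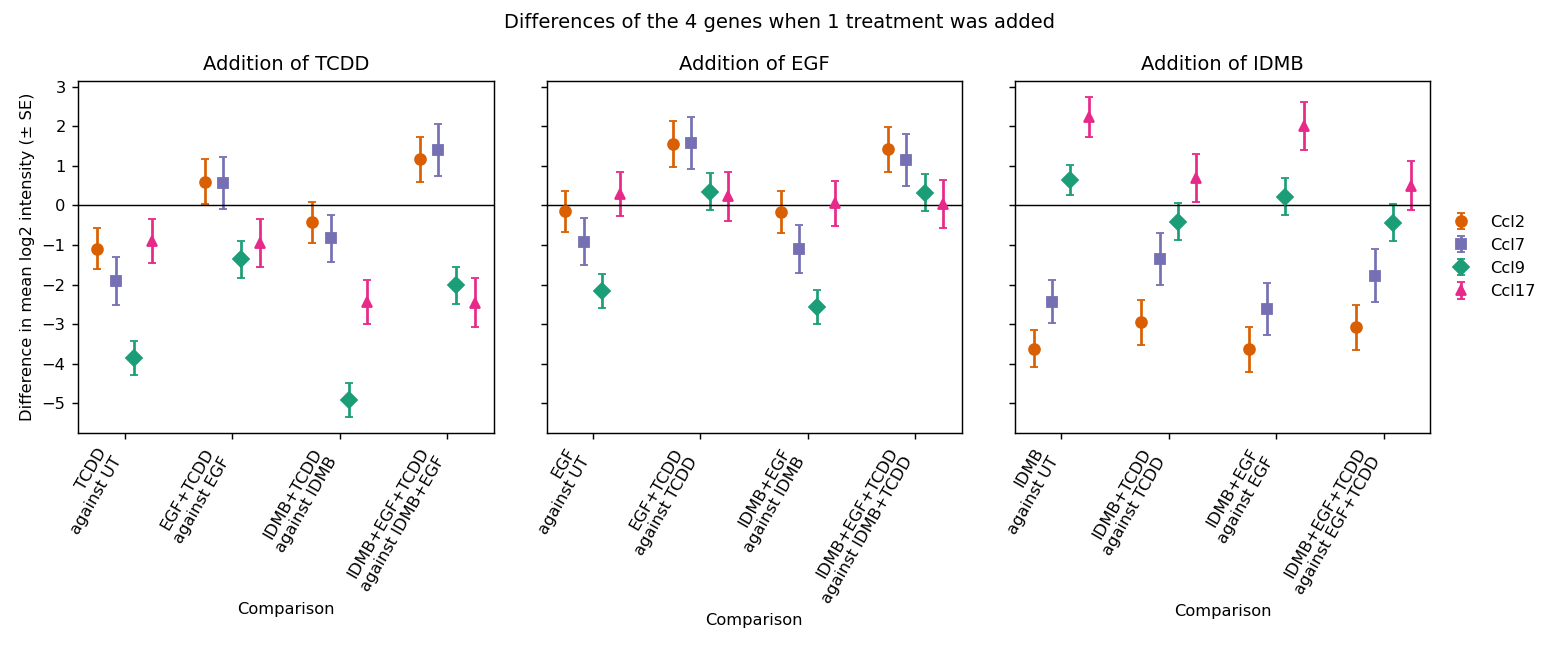
Difference in mean log2 intensity (± SE) of Ccl2, Ccl7, Ccl9 and Ccl17 when TCDD, EGF or IDMB was added, in each of the 4 backgrounds of the other treatments. Ccl9 and Ccl17 are below 0 in all 4 TCDD comparisons, Ccl2 and Ccl7 are below 0 in all 4 IDMB comparisons, and Ccl17 is above 0 in all 4 IDMB comparisons.

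The same fit called probe sets at an adjusted p (Benjamini-Hochberg over 7134 probe sets) under 0.05. The number of members called, or free of overlap, is set beside the share of all tested probe sets and is not read as evidence, since the members were picked on these values.

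For TCDD against UT the fit called 3.88% of probe sets higher and 3.80% lower, and of the 4 members Ccl9 lower. All 4 members lay below UT on both TCDD arrays, as did 19.1% of probe sets, while 22.0% lay above. For IDMB+TCDD against IDMB it called 3.06% higher and 3.53% lower, and Ccl9 and Ccl17 lower, with the Ccl17 call lost without IDMB replicate 2 or either IDMB+TCDD array, and with the Gapdh ratio as a covariate. Of the members 3 lay below every IDMB array, as did 18.8% of probe sets, while 18.6% lay above. For EGF+TCDD against EGF it called 0.238% higher and 0.0421% lower, and 0 members, where limma's unadjusted p was under 0.05 for 1. Of the members 2 lay above and 1 below without overlap, as did 19.2% and 17.9% of probe sets. For IDMB+EGF+TCDD against IDMB+EGF it called 0.224% higher and 0.140% lower, and 0 members, with limma's unadjusted p under 0.05 for 3. Here 2 members lay above and 2 below, as did 17.4% and 16.4% of probe sets.

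For EGF against UT the fit called 3.59% of probe sets higher and 2.58% lower, and Ccl9 lower, a call lost without EGF replicate 2 or UT replicate 2, without the filter, and with the actin or the Gapdh ratio as a covariate. Of the members 2 lay below without overlap, as did 18.1% of probe sets, and 0 above, as did 19.6%. For IDMB+EGF against IDMB it called 1.92% higher and 1.88% lower, and Ccl9 lower, a call lost without IDMB+EGF replicate 1. That gene was the 1 member free of overlap, among 14.9% of probe sets that lay below and 16.1% above. For EGF+TCDD against TCDD it called 1.60% higher and 1.91% lower, and for IDMB+EGF+TCDD against IDMB+TCDD 0.154% higher and 0.126% lower. It called 0 members in each, with limma's unadjusted p under 0.05 for 2 members in EGF+TCDD against TCDD and for 1 in IDMB+EGF+TCDD against IDMB+TCDD. In EGF+TCDD against TCDD 3 members lay above without overlap, as did 27.8% of probe sets, while 27.2% lay below. In IDMB+EGF+TCDD against IDMB+TCDD 2 members lay above, as did 26.2% of probe sets, while 22.0% lay below.

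For IDMB against UT the fit called 6.66% of probe sets higher and 7.42% lower, with Ccl17 higher and Ccl2 and Ccl7 lower. Leaving out 1 array lost none of these calls, which is no support, since the members were picked on these arrays. Ccl17 also passed the filter only through its level in the groups with the mix and no TCDD, so its calls follow in part from the filter. The Ccl17 call was lost with the actin ratio as a covariate. For IDMB+EGF against EGF it called 5.52% higher and 5.27% lower, with Ccl17 higher and Ccl2 and Ccl7 lower. The Ccl17 call held in 4 of 18 fits with 1 array left out and under 4 of the 10 other alternatives, and the Ccl7 call was lost without either EGF array, without IDMB+EGF replicate 2 and without the filter. For IDMB+TCDD against TCDD it called 6.53% higher and 6.28% lower, and Ccl2 lower, a call lost without TCDD replicate 1. For IDMB+EGF+TCDD against EGF+TCDD it called 3.45% higher and 3.06% lower, and Ccl2 lower, a call lost without IDMB+EGF+TCDD replicate 1. In each of the 4 comparisons Ccl17 lay above and Ccl2 and Ccl7 below without overlap. The share of all probe sets above was 13.2% for IDMB against UT, 24.9% for IDMB+EGF against EGF, 26.5% for IDMB+TCDD against TCDD and 25.1% for IDMB+EGF+TCDD against EGF+TCDD, and the share below was 13.4%, 28.8%, 34.0% and 29.3% in that order.

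The median difference of the 4 members for TCDD was −1.51 against UT, −0.19 for EGF+TCDD against EGF, −1.64 for IDMB+TCDD against IDMB and −0.43 for IDMB+EGF+TCDD against IDMB+EGF. For EGF it was −0.53 against UT, −0.63 for IDMB+EGF against IDMB, 0.95 for EGF+TCDD against TCDD and 0.73 for IDMB+EGF+TCDD against IDMB+TCDD. For IDMB it was −0.90 against UT, −1.20 for IDMB+EGF against EGF, −0.88 for IDMB+TCDD against TCDD and −1.10 for IDMB+EGF+TCDD against EGF+TCDD. Over all tested probe sets the median ran from −0.08 to 0.04 in these 12 comparisons.

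**Figure D3:**
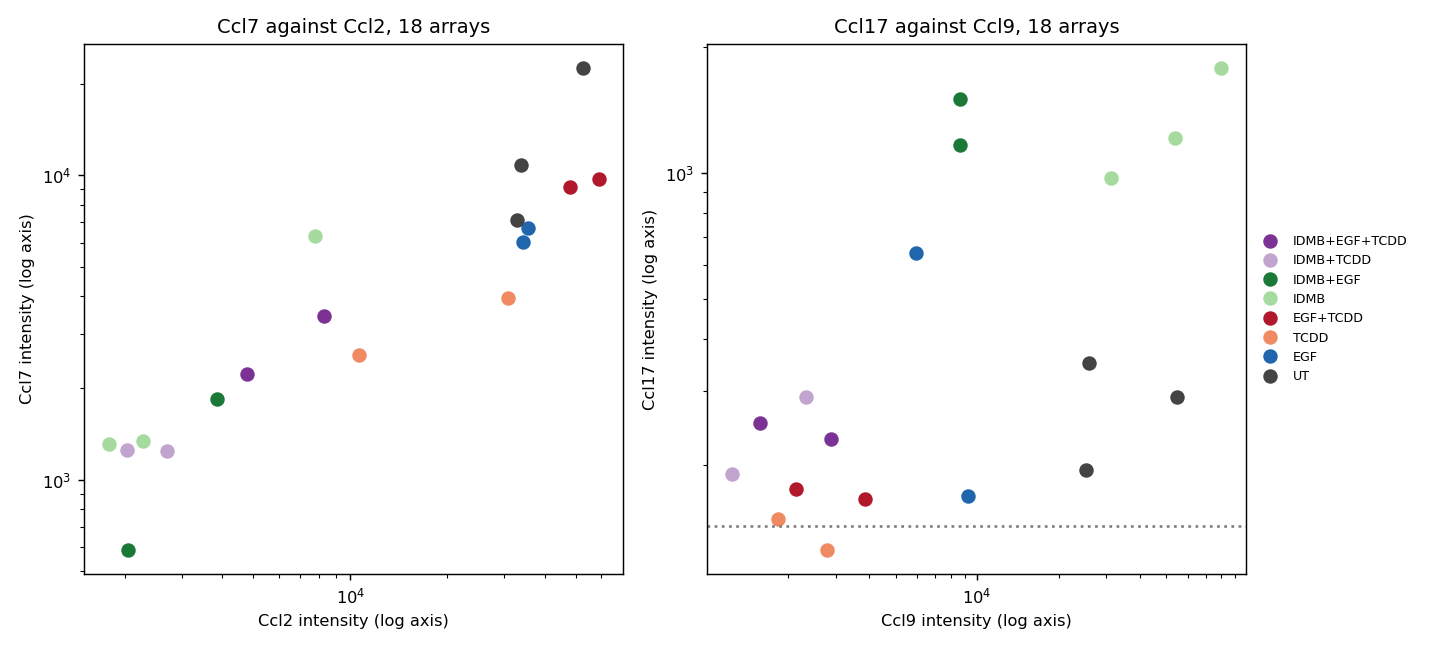
Intensity of Ccl7 against Ccl2 (left) and of Ccl17 against Ccl9 (right), both on log axes, for the 18 arrays coloured by group, with a dotted line at the floor of 143.5 on the right. Ccl2 and Ccl7 are high on the same arrays, while Ccl17 is high on arrays with IDMB or IDMB+EGF. Ccl9 is high with IDMB and lower with IDMB+EGF. It is also high in UT, where Ccl17 is at most 350.0.

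Ccl2 and Ccl7 varied together within groups, as a description over 18 arrays that share groups and scaling. The Pearson correlation of their log2 intensities was 0.920. After each array's group mean was taken away it was 0.887, and the same array was highest for both genes in 7 of 8 groups. Over the 5 other pairs the correlation of such deviations was between −0.411 and 0.0906. Across all arrays Ccl9 and Ccl17 correlated at 0.606, Ccl2 and Ccl9 at −0.03, and Ccl2 and Ccl17 at −0.57.

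Genes with the most similar pattern over the 18 arrays were found by Pearson correlation among all tested probe sets. For Ccl2 they were Cetn3 (0.963), Ccnd1 (0.963), the cyclin of G1 progression, Anxa3 (0.952), Ces2g (0.950) and Pdia5 (0.941), and Ccl7 ranked 8. For Ccl7 they were Anxa3 (0.933), Ccl2 (0.920), Serpinb6a (0.920), Map4 (0.909) and 9530068E07Rik (0.896). For Ccl9 they were Hprt (0.885), Higd1a (0.858), Aldoa (0.854), a glycolytic enzyme, Fam162a (0.831) and Mpp1 (0.826). For Ccl17 they were Ctla2b (0.862), Plin2 (0.862), which coats lipid droplets, Plxna2 (0.857), Bzw1 (0.844) and Ldhb (0.844).

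The filter on low values passed few of the other CC chemokine and receptor genes. Of 17 other CC chemokine genes 10 were on the array and 2, Ccl1 and Ccl22, passed the filter. Of 14 CC chemokine receptor genes 12 were on the array and 2, Ccrl2 and Ackr4, passed. Over 48 tests of these 4 genes limma called 0, and 2 had an unadjusted p under 0.05. The smallest adjusted limma p was 0.0617, for Ackr4, an atypical receptor that scavenges chemokines, at 812.5 and 975.3 with IDMB+TCDD, against 51.1 and 310.3 with TCDD (log2 2.08, SE 0.695). For Ccl22, the other ligand of CCR4 and a neighbour of Ccl17, the smallest was 0.141. It read 1094.8, 1709.6 and 1172.2 with IDMB, against 613.6, 830.3 and 983.0 in UT (log2 0.71, SE 0.301).

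The neighbours of Ccl2 and Ccl7 read low throughout. Ccl11 (eotaxin) was at the floor on 14 of 18 arrays, Ccl12 on 10 and Ccl8 on 5, with highest intensities of 401.6, 506.4 and 333.2. Of the neighbours of Ccl9, Ccl5 was at the floor on 8 arrays, Ccl3 on 5, Ccl4 on 12 and Ccl6 on 1, the last reaching 742.9. Of the receptors of the 4 chemokines, Ccr2 was at the floor on 11 arrays, Ccr1 on 12 and Ccr4 on 12, with highest intensities of 372.0, 338.3 and 229.8, while Ccr3, another receptor of Ccl7, was at the floor on 3 and reached 494.4.

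**Figure D4:**
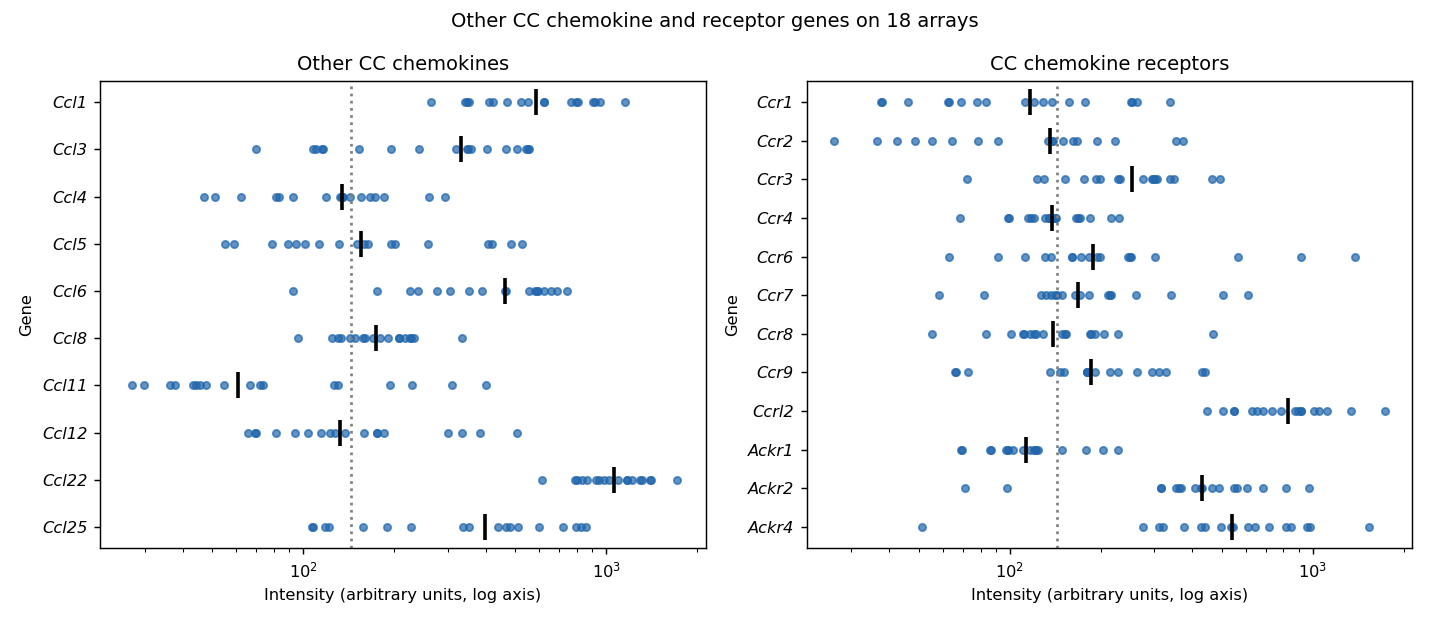
Intensity (arbitrary units, log axis) of the other CC chemokine genes and of the CC chemokine receptor genes on the array, with 1 point per array, a bar at the median and a dotted line at the floor of 143.5. Ccl1, Ccl22 and Ccrl2 are above the floor on all 18 arrays, whereas Ccr1, Ccr2 and Ccr4 are at the floor on 11 or 12 of them.

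The lists of pathway genes were written with earlier results of these arrays known. For AhR genes all 7 of 7 listed were tested, and 6 rose and 1 fell with TCDD against UT, with a median of 2.00 against 0.03 over all probe sets. With EGF+TCDD against EGF 5 rose and 0 fell, with IDMB+TCDD against IDMB 5 rose and 0 fell, and with IDMB+EGF+TCDD against IDMB+EGF 2 rose and 0 fell. Aldh3a1, an aldehyde dehydrogenase, and Cyp1b1, a cytochrome P450, rose in all 4. For Aldh3a1 the difference was 3.39 for TCDD against UT (SE 0.331, limma adjusted p = 6.83e-05), 3.86 for EGF+TCDD against EGF, 4.37 for IDMB+TCDD against IDMB and 4.57 for IDMB+EGF+TCDD against IDMB+EGF, the last being 5.19 without IDMB+EGF replicate 1 and 3.96 without IDMB+EGF replicate 2. The Cyp1b1 call for TCDD against UT was lost without TCDD replicate 1. Tiparp, an AhR-induced repressor of the receptor, rose by 3.52 for EGF+TCDD against EGF and by 1.15 for IDMB+TCDD against IDMB. The call for IDMB+TCDD against IDMB (limma adjusted p = 0.0456) held in 6 of 18 fits with 1 array left out and under 5 of the 10 other alternatives. Tiparp was not called for IDMB+EGF+TCDD against IDMB+EGF. The mix without TCDD also went with more Tiparp, by 2.27 for IDMB against UT and 2.13 for IDMB+EGF against EGF. In the same order Ahr differed by −2.03 and −1.61. Tiparp rose by 3.88 (SE 0.326, limma adjusted p = 1.64e-05) with TCDD against UT. Ahr itself fell by 1.09 (SE 0.303, limma adjusted p = 0.0375) in that comparison, a call lost without either TCDD array, UT replicate 2 or UT replicate 3.

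Glucocorticoid-responsive genes rose with the mix in every background. Of 12 listed 10 were tested, and 9 rose and 0 fell with IDMB against UT, with a median of 1.61. In the other IDMB comparisons 7 rose, with 0 falling in IDMB+TCDD against TCDD and in IDMB+EGF+TCDD against EGF+TCDD and 1 in IDMB+EGF against EGF, and medians of 1.47, 1.64 and 1.59 in that order. Fkbp5, a co-chaperone of the glucocorticoid receptor, rose by 4.29 (SE 0.296, limma adjusted p = 6.92e-08) with IDMB against UT. Cebpd, a transcription factor induced early in adipogenesis, rose by 0.93 (SE 0.163, adjusted p = 0.000851), and the metallothionein Mt2 by 1.73 (SE 0.334, adjusted p = 0.00196).

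Of 27 listed NF-kB and AP-1 genes 22 were on the array and 19 were tested, and at most 3 were called in any comparison. These 3 were for TCDD against UT, with 1 higher and 2 lower. Of all tested probe sets 3.88% were called higher and 3.80% lower there. Fosl1, an AP-1 subunit induced by ERK signalling, rose by 2.85 with TCDD (SE 0.403, limma adjusted p = 0.000943), by 3.44 with EGF (SE 0.403, adjusted p = 0.000568) and by 3.27 with IDMB (SE 0.361, adjusted p = 1.16e-05), each against UT. The TCDD value was 2.23 without TCDD replicate 1 and 3.47 without TCDD replicate 2. Jund, another AP-1 subunit, fell by 0.84 (SE 0.153, adjusted p = 0.00557) with TCDD against UT. That call was lost without TCDD replicate 2, with the Gapdh ratio as a covariate, and when only the 2 groups compared were fitted. Rela, the p65 subunit of NF-kB, fell by 1.02 (SE 0.184, adjusted p = 0.00203) with IDMB+TCDD against TCDD. With the actin ratio as a covariate the Rela difference was −0.66 and the call was lost. Fos rose by 2.98 (SE 0.585, adjusted p = 0.00973) with IDMB+EGF against IDMB. That value was 3.93 without IDMB+EGF replicate 1, and the call was lost without IDMB+EGF replicate 2, at 2.04.

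Of 34 listed genes of cytokine signalling that induces chemokines, 30 were on the array and 21 were tested. For the mix 2 rose and 5 fell in IDMB against UT, 4 rose and 1 fell in IDMB+EGF against EGF, 2 rose and 2 fell in IDMB+TCDD against TCDD, and 1 rose and 1 fell in IDMB+EGF+TCDD against EGF+TCDD. With TCDD against UT 3 rose and 0 fell, and with IDMB+TCDD against IDMB 4 rose and 0 fell. For EGF 3 rose and 0 fell with IDMB+EGF against IDMB, and 1 rose and 0 fell with EGF against UT. With EGF+TCDD against TCDD 0 rose and 1 fell. The remaining TCDD and EGF comparisons had 0 calls. Of all tested probe sets 6.66% were called higher and 7.42% lower for IDMB against UT, and 3.88% and 3.80% for TCDD against UT. These shares were 5.52% and 5.27% for IDMB+EGF against EGF and 6.53% and 6.28% for IDMB+TCDD against TCDD. For IDMB+EGF+TCDD against EGF+TCDD they were 3.45% and 3.06%. They were 3.06% and 3.53% for IDMB+TCDD against IDMB and 1.92% and 1.88% for IDMB+EGF against IDMB. For EGF against UT they were 3.59% and 2.58%, and for EGF+TCDD against TCDD 1.60% and 1.91%. The list median was 0.04 for IDMB against UT and 0.12 for TCDD against UT, against −0.01 and 0.03 over all probe sets. Csf1, the macrophage growth factor, fell by 1.21 (SE 0.171, limma adjusted p = 0.000114) with IDMB against UT, and Lifr, a receptor for leukaemia inhibitory factor, by 1.56 (SE 0.239, adjusted p = 0.00026). Set against IDMB, Lifr was called higher by 1.73 with IDMB+EGF and by 1.02 with IDMB+TCDD. The IDMB+TCDD call was lost with the Gapdh ratio as a covariate. Tnfrsf1b, a receptor of tumour necrosis factor, rose by 0.83 (SE 0.158, adjusted p = 0.00171) with IDMB against UT. With the actin ratio as a covariate the Tnfrsf1b difference was 0.72 and the call was lost. Stat3 rose by 1.06 (SE 0.162, adjusted p = 0.000396) with IDMB+EGF against EGF.

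Markers of fibroblasts and of other cell types were read on the same arrays. Each of the 14 fibroblast markers had a probe set and 11 passed the filter, while Vim reached a group mean of 676, Lum 463 and Fap was at the floor on 16 arrays. Col1a1, the main fibrillar collagen, read at least 68469 on every array. Summed fibroblast markers were 299571 to 365140 with TCDD, against 434520 to 500446 in UT, and 273322 to 314117 with IDMB. The brightest of these markers were Col1a1 and Col1a2, which reached 152911 and 140485. A percentile near the top of all intensities on an array was also lower with TCDD, at 77274 and 115493. It was 139730 to 170579 in UT and 144564 to 164879 with IDMB. Whether the lower marker sum with TCDD goes beyond this lower upper end of the arrays was not tested. Of 20 macrophage and leukocyte markers 19 were on the array and 4 were tested. Of these 19, Aif1 was at the floor on 18 arrays, Ptprc, Adgre1 and Itgam on 16 each and Lyz2 on 15. Tyrobp was at the floor on 14 arrays, Fcer1g on 13, C1qa on 8 and Cd3e on 3. For Ctss and Mpeg1 it was 2 arrays each, and for Cd68 and Fcgr3 1 each. Cd14, Csf1r, C1qb, C1qc, Itgax and Fcgr1 were at the floor on 0 arrays, and Cd14, Csf1r, C1qc and Mpeg1 passed the filter, with highest group means of 9272, 1106, 1170 and 920.0 in that order. The summed intensity of the 19 was 13852 to 17217 with TCDD, against 9201 to 12024 in UT. With IDMB+TCDD the sum was 12007 to 12652, against 8739 to 12263 with IDMB. Cd14, a coreceptor that fibroblasts also carry, was the 1 member of that list to rise with TCDD against UT (log2 0.75, SE 0.156, limma adjusted p = 0.0103). All 12 endothelial and epithelial markers were on the array, 2 were tested, and their sum was 4205 to 4437 with TCDD, against 3937 to 6591 in UT. The part of these marker values in the chemokine differences was not tested.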

How the data were processed

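Pooled RNA was measured on 18 1-colour arrays of 12488 probe sets, 66 of them controls. Values were used as deposited and are intensities on a linear scale, from 0.4 to 441059.8; the mean of each array without its outer 2% on either side was about 2502 at most, so the authors had scaled the deposited intensities to a common mean. The software was not given in the sources used here. Of the probe sets that are not controls, 10833 had 1 gene symbol, 396 several and 1193 none, and 0 symbols changed when checked through Entrez identifiers.

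Array medians differed by a ratio of 1.18, under a limit of 1.25, so no scaling was added. A floor was put at the 20th percentile of the pooled intensities (143.5) before log2 was taken. Probe sets were tested where the highest group mean reached the median log2 value (9.73), which left 7134. limma 3.58.1 in R 4.3.3 fitted 1 mean per group over all 18 arrays, with eBayes and a variance trend (10 residual and 6.03 prior degrees of freedom). Benjamini-Hochberg adjustment ran over all tested probe sets. The groups share 1 estimate of spread because 6 of them hold 2 arrays. The number of arrays limits the precision. The procedure was tested on simulated data.

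Replicates were taken as labelled, and the labels do not say whether arrays are separate experiments, so p-values measure the spread between these arrays. Same-numbered arrays were not taken as pairs. The members, gene lists and motifs were chosen with earlier results of these data known. The text names every member probe set, the 5 genes most like each member, and at least 1 check gene for each treatment. Of each list it names genes among the 4 of smallest adjusted p, not always all of them. List genes given only as levels, and Cd14 and Col1a1, were chosen after their values were seen. Each alternative in the closing section was recomputed 1 at a time.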

Additional observations from a re-analysis of the deposited data

Results flagged for a closer look

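When no covariate was used, the TCDD differences of Ccl2 and Ccl7 were negative without EGF and positive with it. The arrays compared did not overlap, except for Ccl2 in IDMB+TCDD against IDMB. For EGF+TCDD against EGF the SE was 0.569 for Ccl2 and 0.657 for Ccl7, about as large as the differences. In IDMB+TCDD against IDMB the Ccl7 difference was −0.84, and −0.08 without IDMB replicate 1. None of the gaps between the TCDD differences with and without EGF was tested, and several share arrays. For Ccl2 the difference of EGF+TCDD against EGF exceeded that of TCDD against UT by 1.70 on the log2 scale (0.60 against −1.10), and that of IDMB+EGF+TCDD against IDMB+EGF exceeded it by 2.26 (1.16 against −1.10). The gap of 2.26 spans the mix as well as EGF. With the mix on both sides the Ccl2 gap was 1.59 (1.16 against −0.43 for IDMB+TCDD against IDMB). For Ccl7 the gaps set against TCDD and UT were 2.48 (0.56 against −1.91) and 3.32 (1.41 against −1.91), and that of 3.32 again spans the mix. Set against IDMB+TCDD and IDMB (−0.84), the TCDD difference of Ccl7 was higher by 1.40 for EGF+TCDD against EGF and by 2.24 for IDMB+EGF+TCDD against IDMB+EGF. The gap of 1.40 spans the mix as well as EGF, while that of 2.24 has the mix on both sides. With the Gapdh ratio as a covariate, EGF+TCDD against EGF gave −0.04 for Ccl2 and −0.21 for Ccl7, and TCDD against UT −0.09 and −0.70.

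The effect of EGF on Ccl7 also differed in direction with TCDD when no covariate was used. The difference of EGF+TCDD against TCDD (1.56) exceeded that of EGF against UT (−0.91) by 2.48, and that of IDMB+EGF+TCDD against IDMB+TCDD (1.15) exceeded it by 2.06. The gap of 2.06 spans the mix as well as TCDD. These gaps were not tested either. With the Gapdh ratio as a covariate the 3 differences had 1 sign, at −1.20 for EGF+TCDD against TCDD, −1.06 for IDMB+EGF+TCDD against IDMB+TCDD and −1.68 for EGF against UT. No group held the 4 arrays that a check for a single outlying array needs.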

How the results depend on the processing

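Each count of called probe sets and each member difference was recomputed under 28 alternatives, 18 of which left out 1 array. Of 1344 member differences 1294 moved by under 1 SD and 50 by more, 35 turned sign, and 0 of the called ones did. Many of them could not move, so these counts do not measure how stable the differences are. Leaving out an array of a group that is not compared cannot change a difference. The same holds for dropping the filter or the variance trend and for fitting only the 2 groups compared. Leaving out 1 array gave 114 to 641 calls for TCDD against UT (548 with all arrays), 8 to 24 for EGF+TCDD against EGF (20), 151 to 528 for IDMB+TCDD against IDMB (470), 6 to 33 for IDMB+EGF+TCDD against IDMB+EGF (26), 14 to 508 for EGF against UT (440), 1 to 303 for EGF+TCDD against TCDD (250), 30 to 305 for IDMB+EGF against IDMB (271), 0 to 32 for IDMB+EGF+TCDD against IDMB+TCDD (20), 788 to 1050 for IDMB against UT (1004), 306 to 1000 for IDMB+TCDD against TCDD (914), 308 to 846 for IDMB+EGF against EGF (770) and 178 to 554 for IDMB+EGF+TCDD against EGF+TCDD (464). With the Gapdh ratio as a covariate the counts were 36 for TCDD against UT, 10 for EGF+TCDD against EGF, 267 for IDMB+TCDD against IDMB, 5 for IDMB+EGF+TCDD against IDMB+EGF, 189 for EGF against UT, and 0 for EGF+TCDD against TCDD and for IDMB+EGF+TCDD against IDMB+TCDD. With the actin ratio they were 3 for IDMB+EGF+TCDD against IDMB+EGF, 176 for EGF against UT, 0 for EGF+TCDD against TCDD and for IDMB+EGF+TCDD against IDMB+TCDD, 166 for IDMB+EGF against IDMB, 482 for IDMB against UT, 210 for IDMB+TCDD against TCDD, 446 for IDMB+EGF against EGF and 101 for IDMB+EGF+TCDD against EGF+TCDD. Without the filter they were 338 for TCDD against UT, 12 for EGF+TCDD against EGF and 184 for EGF against UT. Fitting only the 2 groups compared gave 112 for TCDD against UT, 140 for IDMB+TCDD against IDMB, 11 for IDMB+EGF+TCDD against IDMB+EGF, 232 for EGF against UT, 24 for EGF+TCDD against TCDD, 72 for IDMB+EGF against IDMB, 0 for IDMB+EGF+TCDD against IDMB+TCDD and 627 for IDMB against UT. Scaling to the same median gave 37 for IDMB+EGF+TCDD against IDMB+TCDD. The replicate block gave 441 for IDMB+EGF against IDMB and 40 for IDMB+EGF+TCDD against IDMB+TCDD. The labels do not say that a number marks a shared batch. Deviations from the group mean correlated over 0.1 in 7 of 25 same-numbered pairs (range −0.10 to 0.44). Where 2 arrays were compared with 2, both pairs give the same value by construction, so the 25 are not separate checks. IDMB replicates 1 and 3 correlated best with the UT array of their own number (0.438 and 0.248), and IDMB replicate 2 with UT replicate 3 (0.191; own number 0.0589). The difference of Rela for EGF+TCDD against TCDD was 0.080 with the Gapdh ratio as a covariate, against −0.72 without. Leaving out an array or fitting only 2 groups leaves fewer arrays in the fit; otherwise the cause was not tested.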
